A study of Mus musculus with 88 samples.

Results

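Bulk RNA-seq of mouse embryoid bodies (EBs) at days 2, 4 and 7 was compared between libraries labelled Jarid2 null and libraries of JM8, the embryonic stem cell line that the labels give as Jarid2 WT and that the study treats as the wild-type of matched background. These are 6 of the 88 samples of the series, 1 sample per line and day, and each sample is the mean of 2 columns of the deposited table. The Jarid2 null libraries carry the strain label jarid2ko and the genotype Jarid2-/-, and the JM8 libraries the strain label jm8-jarid2wt. Stem cells were grown in serum with LIF, aggregated, and left to differentiate as EBs after LIF was taken away. Day 0 was left out because its label is in doubt. The deposited bulk values were read counts divided by a size factor. Recovered whole reads came to between 7336837 and 15605645 per sample. The study describes the bulk libraries as technical replicates, and nothing in the labels shows that days or columns came from separate cultures. The p-values therefore measure only the spread between these samples, which may be technical, with the 3 days in the place of replicates. Each genotype is 1 line, so genotype and line cannot be told apart. In whole EBs, fewer cells of a type and less RNA per cell cannot be told apart either.

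Polycomb repressive complex 2 (PRC2) places methyl groups on lysine 27 of histone H3 and keeps developmental genes low until they are needed. Its core of EZH1 or EZH2, EED and SUZ12 works with accessory proteins. MTF2 is one of those that define the PRC2.1 form, and JARID2, together with AEBP2, defines PRC2.2. EBs are aggregates in which stem cells leave pluripotency and form cells of the 3 germ layers. Their outer layer becomes extraembryonic endoderm, an epithelium driven by GATA6, GATA4, SOX17 and HNF4A that takes up nutrients through cubilin and lays down a basement membrane of laminin and type IV collagen.

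The label was checked first. Jarid2 stood at 645, 239 and 212 CPM (a gene's reads scaled to a fixed library total) at days 2, 4 and 7 in the Jarid2 null libraries and at 594, 263 and 311 CPM in JM8. The log2 difference was −0.19 ± 0.16 (SE, n = 3 days a side; limma, Benjamini-Hochberg adjusted p = 0.439). Which part of the gene was deleted is not given in the sources used here, so a total level over the gene does not check the label. Hprt, the purine salvage enzyme on chromosome X, told the lines apart. It stood at 0.433, 0.521 and 0.0697 CPM in the Jarid2 null libraries against 153, 103 and 77.5 CPM in JM8 (log2 difference −7.30 ± 0.26, adjusted p = 0.000255). The Y-linked Eif2s3y, a subunit of a translation initiation factor, went the other way, at 65.2, 90 and 82 CPM against 3.17, 0.518 and 0.934 CPM (5.62 ± 0.48, adjusted p = 0.00364). Olig2, a transcription factor of motor neuron and oligodendrocyte precursors, was at 0 CPM in all 3 Jarid2 null libraries and at 22.3, 16.6 and 4.43 CPM in JM8. Eif2s3y was chosen after its values were seen.

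The series also holds single EB cells labelled Jarid2 null and WT, 1 plate per genotype and day, with strain E14 given for both. Wells of at least 500 genes numbered 368 at day 4 and 338 at day 7 for Jarid2 null, and 364 and 340 for WT, with between 2461493 and 3199957 UMI per plate. Summed over cells, Hprt stood at 464 and 301 CPM in the Jarid2 null plates and at 0.332 and 1.1 CPM in the WT plates. Eif2s3y was at 2.19 and 8.94 CPM against 137 and 101 CPM. Olig2 was at 52.2 and 20.3 CPM against 0 UMI in both WT plates, where 3 UMI would be 0.996 and 1.1 CPM. All 3 genes thus differed in the opposite direction in the cells and in bulk. The same held for most of the genes called in bulk that were also well apart between the plates, which were few. The single-cell data held 1016 of the higher and 1001 of the lower genes. Of those with at least 100 UMI and at least 2-fold apart between the plates, 45 of 57 higher and 96 of 101 lower in bulk went the other way at day 4. At day 7 it was 79 of 82 and 44 of 48. There is 1 plate per genotype and day, so this comparison has no test. Which of the labels the RNA goes with cannot be settled from these files, and the bulk samples are called here by their labels, as Jarid2 null-labelled and JM8 libraries.

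**Figure D1:**
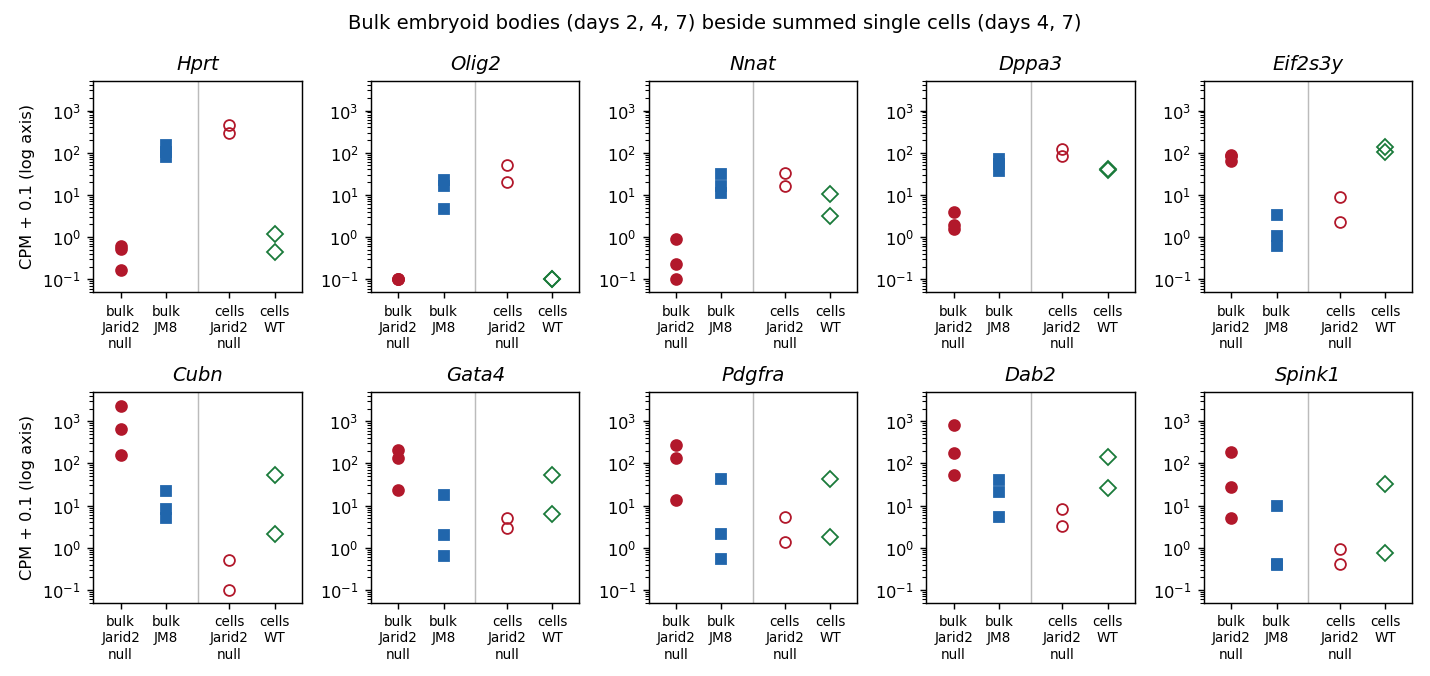
Levels of marker genes in bulk EBs (left of the line in each panel, days 2, 4 and 7) and in cells summed per plate (right, days 4 and 7), in CPM plus 0.1 on a log axis; each point is 1 sample or plate. Hprt and Olig2 are high in JM8 in bulk and high in Jarid2 null among single cells, and Eif2s3y is the reverse.

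Of 13815 genes tested, 1056 were higher in the Jarid2 null-labelled libraries (7.64%) and 1017 lower (7.36%) at an adjusted p under 0.05. Of these, 632 were higher and 481 lower by at least 2-fold. Every called gene had the same sign at all 3 days. With upper-quartile scaling, which moved the median over all genes from 0.02 to −0.08 on the log2 scale, 843 genes were higher and 1426 lower. In 1503 genes (10.9%) all 3 Jarid2 null-labelled samples lay above all 3 JM8 samples, and in 1221 (8.84%) all lay below. The difference was already wide at day 2: 2745 genes were at least 2-fold apart then, 2542 at day 4 and 2313 at day 7. Calls rested most on day 4: without it 42 genes were called, against 1891 without day 2 and 424 without day 7, and of the 2073 these fits shared 42, 1310 and 391.

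The lower genes were not spread evenly over the genome. On chromosome 1, 197 of 773 tested genes were lower (25.5%) and 21 higher, on chromosome 11 258 of 1094 (23.6%) and 21, and on chromosome 19 93 of 479 (19.4%) and 10. Together these 3 chromosomes held 53.9% of all lower genes, with a median log2 difference of −0.38. Among the other 11469 genes, 4.09% were lower, 8.75% were higher and the median was 0.09. The shift was much alike at the 3 days. For coding genes the median on chromosome 1 was −0.51, −0.45 and −0.45 at days 2, 4 and 7, on chromosome 11 −0.39, −0.42 and −0.44, and on chromosome 19 −0.34, −0.37 and −0.34. Part of chromosome 8 showed the same: below position 70 Mb (GRCm38) the median of 248 genes was −0.45, with 58 lower and 10 higher, and above it the median of 481 genes was 0.22. The end of chromosome 14, from 62676330 to 122984035, held 50 higher genes and 2 lower among 161, with a median of 0.50. These regions were picked after the values were seen, and the number of chromosome copies was not measured.

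**Figure D2:**
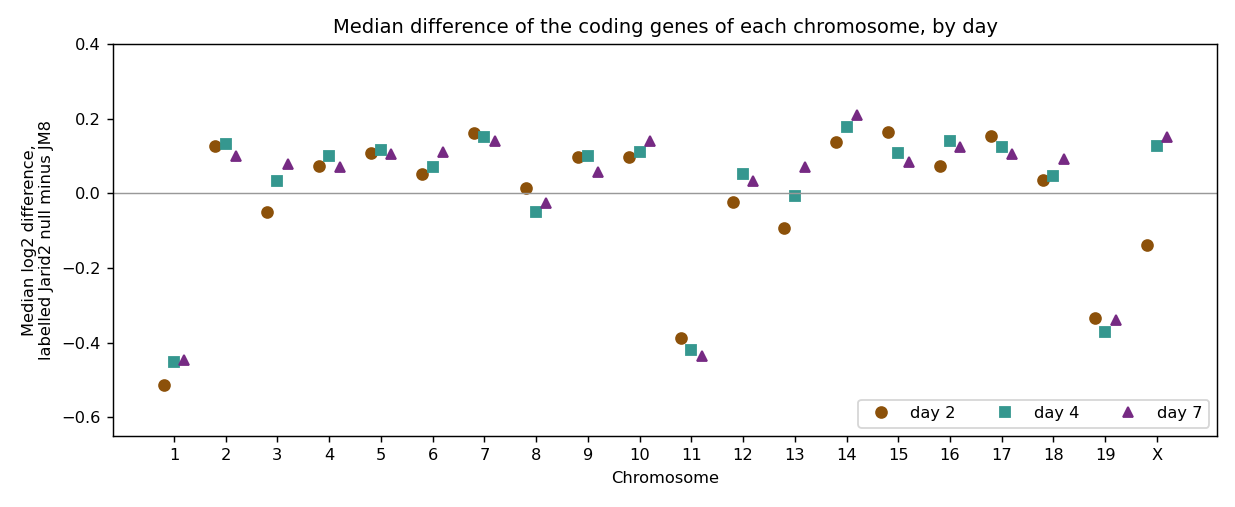
Median log2 difference of the coding genes of each chromosome, Jarid2 null-labelled minus JM8, with 1 marker per day (2, 4 and 7). Chromosomes 1, 11 and 19 lie between −0.51 and −0.34 at all 3 days, while the others lie between −0.14 and 0.21.

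The line that stood apart differed by chromosome. Set against the mean of all 6 bulk EB lines, chromosome 1 genes of JM8 had medians of 0.47, 0.45 and 0.46 at days 2, 4 and 7, while the Jarid2 null-labelled samples were at −0.07, −0.02 and 0.00 and the other lines between −0.17 and −0.06. Chromosome 19 gave a like picture, at 0.37, 0.34 and 0.35 in JM8 and 0.03, −0.03 and 0.00 in the Jarid2 null-labelled samples. On chromosome 11, JM8 (0.27, 0.24 and 0.27), the line labelled Pcl1-3 WT (0.31, 0.26 and 0.33) and J1 (0.11, 0.32 and 0.28) were above the mean. The Jarid2 null-labelled (−0.13, −0.20 and −0.19), Mtf2 null (−0.22, −0.31 and −0.37) and Eed null (−0.36, −0.29 and −0.33) samples were below it, so all lines labelled wild-type lay above all lines labelled null. In single cells the corresponding Jarid2 null minus WT medians were 0.03 and 0.10 at days 4 and 7 for chromosome 1, 0.00 and 0.04 for chromosome 11 and −0.01 and 0.03 for chromosome 19. When each chromosome was centred on its own median before the test, 672 genes were higher and 608 lower, and 1160 of these 1280 were among the 2073 called without centring. The centring worked on whole chromosomes, and the median over all tested genes was −0.03 on chromosome 8 and 0.18 on chromosome 14. It therefore left most of the shifts of part of chromosome 8 and of the end of chromosome 14 in place. Gene groups are given below with their counts after this centring where these differ.

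A second property that ran through the calls was the retrocopy, a gene made when a processed mRNA is copied back into the genome. Of the 12 largest increases, Rpl3-ps1, Rps3a2, Rps3a3, Rpl34-ps1, Rps13-ps1, Rps2-ps10, Hmga1b, Pcna-ps2, Tdgf1-ps1, Ftl2-ps and Eno1b were such copies, and the remaining one, Hist1h2al, is annotated as a processed pseudogene of a histone gene with no parent matched here. Of 607 annotated pseudogenes tested 175 were higher and 31 lower, against 878 and 984 of 13166 coding genes. Rpl3-ps1, a copy of the ribosomal protein gene Rpl3, read 1147, 992 and 944 CPM in the Jarid2 null-labelled samples and 0 CPM at all 3 days in JM8. Rps3a3 read between 470 and 651 CPM against 0.158, 0.847 and 0 CPM. Hmga1b read 525, 546 and 267 CPM against 0.396, 0 and 0.533 CPM (log2 difference 9.38 ± 0.43, adjusted p = 0.000577). In each case no JM8 sample came near the other line.

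These copies are almost the same as their parent genes over the coding bases, so a short read can often be placed on either. Windows of 80 coding bases show how few bases tell them apart. They were read from GRCm38 with the GENCODE M21 gene models, run 5′ to 3′ on the coding strand, and carry in capitals the bases that differ between parent and copy.
Rpl3 (chr15:80077791-80091868), coding bases 1 to 80: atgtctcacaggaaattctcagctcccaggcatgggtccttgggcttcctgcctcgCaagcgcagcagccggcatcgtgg
Rpl3-ps1 (chrX:13202571-13203780): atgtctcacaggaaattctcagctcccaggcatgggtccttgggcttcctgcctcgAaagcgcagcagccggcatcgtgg
Rps3a1 (chr3:86137940-86142702), coding bases 181 to 260: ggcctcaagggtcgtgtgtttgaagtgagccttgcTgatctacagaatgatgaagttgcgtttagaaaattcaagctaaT
Rps3a3 (chr13:108670603-108671397): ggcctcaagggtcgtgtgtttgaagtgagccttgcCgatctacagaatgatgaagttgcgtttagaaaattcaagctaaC
Pcna (chr2:132249162-132253314), coding bases 98 to 177: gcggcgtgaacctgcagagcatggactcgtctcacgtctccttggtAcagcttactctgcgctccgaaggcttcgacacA
Pcna-ps2 (chr19:9283380-9284160): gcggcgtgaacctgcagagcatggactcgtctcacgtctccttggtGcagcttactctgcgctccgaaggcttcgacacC
Hmga1 (chr17:27556497-27563674) and Hmga1b (chr11:120762794-120764419), coding bases 1 to 80, the same in both: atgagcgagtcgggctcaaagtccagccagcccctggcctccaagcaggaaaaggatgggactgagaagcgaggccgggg
Over the whole aligned coding sequence Rpl3 and Rpl3-ps1 differ at 2 of 1209 bases, Rps3a1 and Rps3a3 at 8 of 791, and Pcna and Pcna-ps2 at 6 of 781. Hmga1 and Hmga1b differ at none of 354.

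Parents of called copies held a share of lower genes above the 7.36% of all genes, whichever way the copy differed. For 164 copies that were higher and matched a coding gene (at least 90% identity over at least 50% of the copy), 32 of the 109 tested parents were lower and 7 higher, and the median parent difference was −0.34. For 29 copies that were lower, 9 of 23 tested parents were lower and 2 higher, with a median of −0.41. After the reads of each parent and its copies were added, the medians were −0.16 for the former parents and −0.54 for the latter. As sums, 27 of the 109 and 13 of the 23 were called in either direction. Rpl3 itself read 691, 885 and 536 CPM against 1597, 1968 and 1807 CPM (−1.37, adjusted p = 0.0107). Its sum with the copies read 1846, 1882 and 1470 CPM against 1608, 1980 and 1804 CPM, a difference of −0.06 ± 0.16 (adjusted p = 0.835). The ranges overlapped for the sum and did not for the parent.

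The same was seen for genes with other roles. Rps13, another ribosomal protein gene, went from a log2 difference of −4.32 to −0.16 once its copies were added (adjusted p = 0.402). Tdg, a DNA glycosylase of base excision repair and active demethylation, went from −1.12 to −0.16 (adjusted p = 0.353), and Pcna, the sliding clamp of DNA polymerases, from −0.67 to −0.30 (adjusted p = 0.12). Ahcy, the enzyme that clears S-adenosylhomocysteine, read 24.2, 28.8 and 8.92 CPM against 469, 435 and 337 CPM, and its difference went from −4.45 to −0.35 (adjusted p = 0.0972). Others stayed lower as sums: Hmga1, which codes for a DNA-bending chromatin protein, at −0.61 (−2.39 alone, adjusted p = 0.0497), and Kpna2, an importin, at −1.07 (−6.32 alone, adjusted p = 0.0236). With all copies summed into their parents 840 genes were higher and 928 lower. Rpl3, Rps3a1, Hmga1 and Tdg were chosen after their values were seen, for their copies.

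**Figure D3:**
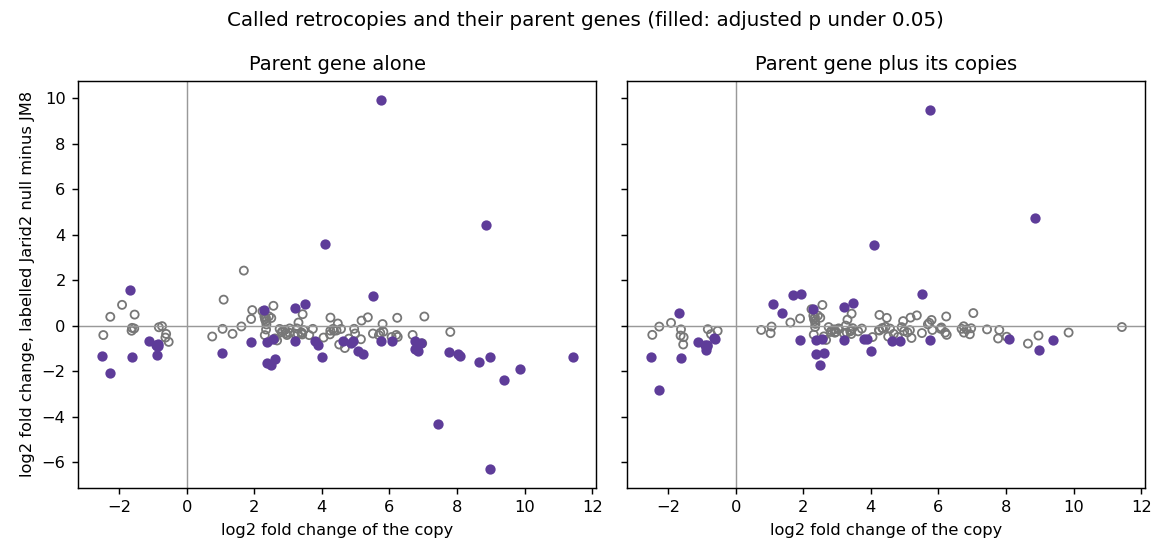
log2 fold change of retrocopies called in either direction (x axis) against that of their parent gene alone (left) and of the parent and copies summed (right), Jarid2 null-labelled minus JM8, for 131 parent genes; filled points passed an adjusted p under 0.05. For parents of higher copies the median was −0.34 alone and −0.16 summed, and for parents of lower copies −0.41 and −0.54.

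Other genes among the 12 largest decreases were not paired with a copy in this way. Srp54b, a signal recognition particle subunit with near-identical neighbours (Srp54a, Srp54c) that makes its level uncertain, read 0.511, 1.74 and 1.88 CPM against 68.4, 61.9 and 41.8 CPM (−5.13 ± 0.42, adjusted p = 0.00335). Ubd, an interferon-inducible ubiquitin-like protein, was at 0 CPM in all 3 samples against 8.86, 5.34 and 9.39 CPM. Ftl1, the ferritin light chain, read 138, 107 and 84.5 CPM against 1429, 3257 and 1610 CPM (−4.18 ± 0.29, adjusted p = 0.00189), while the pseudogene Ftl2-ps read 360, 280 and 233 CPM against 0.0686, 0.153 and 0.64 CPM. Their reads were not summed, so a split between ferritin copies cannot be told from a lower level. Of 22 genes at 20 CPM or more in every sample of one line and at 1 CPM or less in every sample of the other, 21 were high in the Jarid2 null-labelled samples and Hprt was the 1 high in JM8. Most of the 21 are annotated as processed pseudogenes, among them Rpl3-ps1, Rps3a3 and Pcna-ps2, and Hmga1b is a retrocopy. Their counts therefore carry the uncertainty of read placement described above.

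The gene group with the greatest share of higher members among the 39 lists was extraembryonic and visceral endoderm. Of its 28 tested genes 15 were higher and none lower (53.6% against 7.64% of all genes), with a median log2 difference of 2.79. The count was the same after chromosome centring and after summing retrocopies. The day medians were 1.80, 2.77 and 2.98. Added together, the listed genes read 2236, 3610 and 14289 CPM in the Jarid2 null-labelled samples and 1255, 1091 and 2103 CPM in JM8. Both lines were highest at day 7, and the ranges of the lines did not overlap.

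Among the transcription factors of this epithelium, Gata4 (chr14:63198922-63271692) read 23.1, 134 and 207 CPM against 0.523, 1.93 and 17.4 CPM (4.71 ± 0.43, adjusted p = 0.00464). Gata6, which acts upstream of it in primitive endoderm, read 10.9, 37.1 and 94.8 CPM against 0.581, 1.93 and 27.8 CPM (3.12 ± 0.45, adjusted p = 0.0153). Hnf4a, a nuclear receptor needed for visceral endoderm function, read 6.1, 17 and 77.3 CPM against 0.206, 0 and 2.17 CPM (4.66 ± 0.45, adjusted p = 0.00573). All 3 genes were highest at day 7 in both lines. The lines overlapped for Gata6, where JM8 at day 7 lay above the other line at day 2, and not for Gata4 or Hnf4a. Sox17 (2.98 ± 0.33, adjusted p = 0.00857), Foxa2 (2.49 ± 0.34, adjusted p = 0.0129) and Sox7 (2.49 ± 0.26, adjusted p = 0.00717) were higher as well. Gata4 lies in the part of chromosome 14 described above. Sox17 lies on chromosome 1, where most genes were shifted the other way.

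The genes of uptake and secretion followed. Cubn, which codes for the endocytic receptor cubilin, read 154, 643 and 2277 CPM against 8.36, 5.09 and 21.8 CPM (5.90 ± 0.53, adjusted p = 0.00413). Its membrane partner Amn read 5.41, 13.5 and 54 CPM against 0.581, 0.412 and 1.32 CPM (3.92 ± 0.49, adjusted p = 0.0108). Dab2, the adaptor that carries such receptors into the cell, read 51.8, 180 and 815 CPM against 5.17, 20.7 and 39.6 CPM (3.56 ± 0.26, adjusted p = 0.0025). No sample of one line overlapped the other for Amn or Dab2, and for Cubn the highest JM8 value, at day 7, lay below the lowest of the other line. Spink1, a secreted protease inhibitor, was higher by 4.21 ± 0.47 (adjusted p = 0.00849), the parathyroid hormone receptor gene Pth1r by 2.90 ± 0.35 (adjusted p = 0.01) and Pdgfra, a receptor found on primitive endoderm and mesoderm, by 4.16 ± 0.56 (adjusted p = 0.0129). The members Amn, Dab2, Pth1r and Pdgfra were singled out from the list after their values were seen.

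Serum protein genes of the mature yolk sac endoderm varied more with day and were not called. Apob read 0.551, 269 and 2352 CPM against 1.03, 6.31 and 45.6 CPM (3.47, adjusted p = 0.105). Ttr was at 0, 6.26 and 132 CPM against 0, 0.671 and 3.68 CPM (2.57). Afp was at 0, 1.45 and 56.4 CPM against 0, 3.29 and 14 CPM (0.33 ± 0.59, adjusted p = 0.732). In none of the 3 did the Jarid2 null-labelled sample exceed JM8 at day 2, and in all 3 it did at day 7. Apoa2 went from 0 CPM against 17 CPM at day 2 to 17.1 CPM against 1.86 CPM at day 7.

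**Figure D4:**
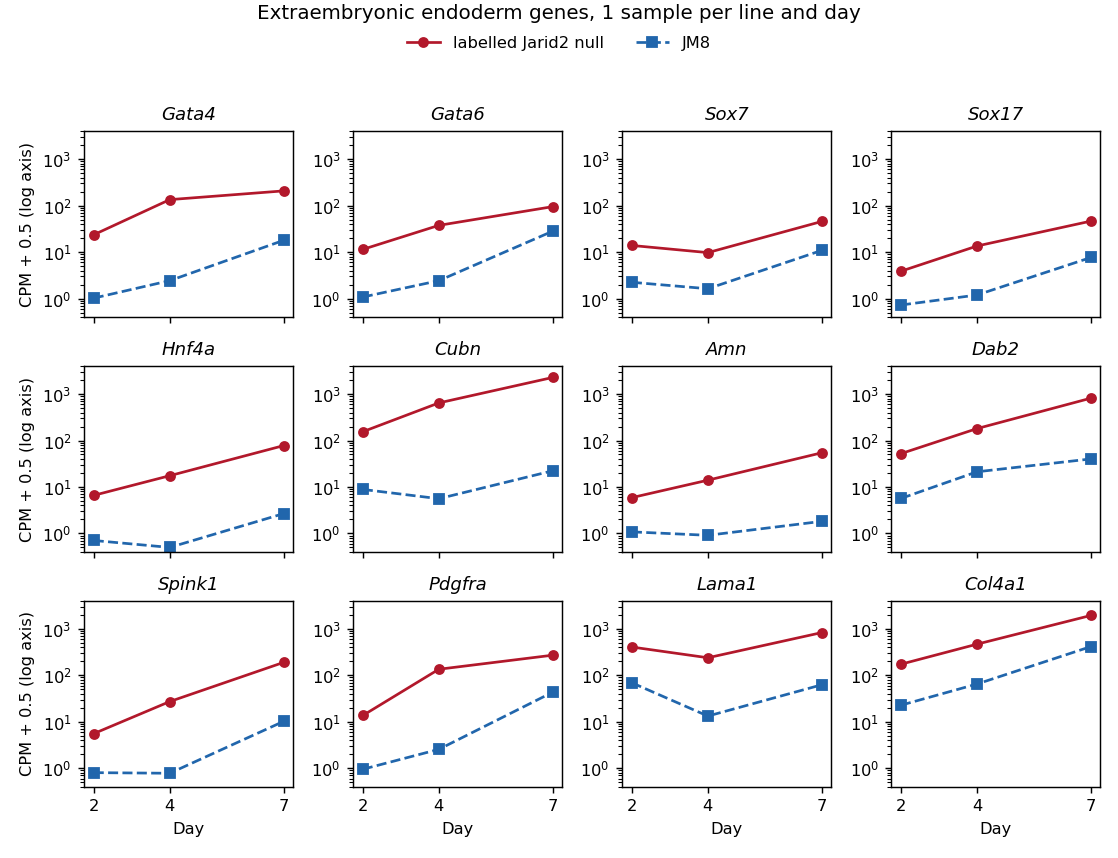
Levels of endoderm and basement membrane genes at days 2, 4 and 7 in the Jarid2 null-labelled and JM8 libraries, 1 sample per point, in CPM plus 0.5 on a log axis. Cubn, Gata4 and Hnf4a are apart at every day, and both lines are highest at day 7 for Gata6 and Col4a1.

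The matrix that this epithelium lays down moved in the same direction. Of 15 basement membrane genes tested 6 were higher (40% against 7.64% of all genes) and none lower, with the same counts after chromosome centring. The called genes Lama1, Col4a1 and Col4a2 also belong to the endoderm list and were counted there, so for them this is not a separate result. Lama1, a laminin chain of the earliest embryonic basement membranes, read 407, 239 and 834 CPM against 68.7, 12.8 and 62.3 CPM (3.49 ± 0.30, adjusted p = 0.00378). Col4a1, a chain of type IV collagen, read 173, 469 and 1950 CPM against 22.3, 64.6 and 416 CPM (2.67 ± 0.17, adjusted p = 0.00147). Its neighbour and partner chain Col4a2 was higher by 2.99 ± 0.41 (adjusted p = 0.0135), and both lie in the part of chromosome 8 where most genes were lower. The nidogen genes, which link laminin to collagen, differed less, at 1.32 ± 0.15 for Nid1 (adjusted p = 0.00945) and 1.13 ± 0.16 for Nid2 (adjusted p = 0.0153), and Lamb2 was at 1.09 ± 0.16 (adjusted p = 0.0155). Lamb1 (0.68 ± 0.26, adjusted p = 0.133) and Sparc (0.58 ± 0.38, adjusted p = 0.329), which the parietal endoderm makes in quantity, did not pass. Leaving out day 4 left 5 of 23 tested endoderm genes and 2 basement membrane genes called, and leaving out day 7 left 10 of 18 and 4.

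In the plates of single cells several of these genes stood in the opposite order. At day 7, Cubn stood at 0.406 CPM in cells labelled Jarid2 null and 51.9 CPM in WT cells, Gata4 at 4.88 and 53 CPM, Gata6 at 9.75 and 54.9 CPM, and Dab2 at 8.12 and 140 CPM. Hnf4a had no UMI in either Jarid2 null plate, against 2.33 CPM at day 4 and 10.7 CPM at day 7 in WT. Others did not follow. Sox17 was at 6.56 CPM in Jarid2 null and 1.66 CPM in WT at day 4, and at 0 and 20.3 CPM at day 7. Apoa2 was at 23.4 and 17.5 CPM in Jarid2 null at days 4 and 7 and at 2.66 and 1.10 CPM in WT.

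Primitive streak genes, which mark cells entering mesoderm and definitive endoderm, were furthest apart at day 4. Their day medians over 12 tested genes were 0.08, 2.58 and 0.46, and summed they read 61.2, 1253 and 149 CPM against 44.9, 199 and 78.9 CPM. T, the mesoderm factor Brachyury, read 0.445, 207 and 6.2 CPM against 0.0792, 63.6 and 4.42 CPM (1.00, adjusted p = 0.0867). Eomes read 4.11, 302 and 19.2 CPM against 5.43, 22.1 and 14.3 CPM (1.26, adjusted p = 0.292), and Mixl1 0.682, 185 and 2.02 CPM against 0.818, 20.7 and 1.03 CPM (1.25, adjusted p = 0.224). Both lines peaked at day 4, and none of the 3 genes was called over the days. Foxa2 was the 1 member called, against 3 without day 2. With 1 sample per line and day, the day 4 difference has no replicate of its own.

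The test of a change of the difference with day called 0 of 13815 genes with limma, against 1501 at an unadjusted p under 0.05. The genes whose difference moved furthest upward between days 2 and 7 included Plac8, which read 1.1, 5.9 and 26 CPM against 51.7, 22.7 and 12.4 CPM, and Dpp4, a peptidase found on visceral endoderm, at 6.88, 40.2 and 175 CPM against 18, 2.82 and 8.66 CPM. Emp1, a membrane protein of epithelia, went the other way, from 69.4 CPM against 2.85 CPM at day 2 to 7.35 against 19.7 CPM at day 7. The remaining genes of that ranking were predicted genes and Apoa2.

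Paraxial and lateral mesoderm genes were called higher about as often as all genes (9.09% against 7.64%). Of 11 paraxial and lateral mesoderm genes tested only Twist1, a factor of mesenchyme, passed (1.74 ± 0.31, adjusted p = 0.0222), while the list's median was 1.15 and reached 2.20 at day 4. In the fibroblast and mesenchyme list 3 of 14 were higher (21.4%), namely Vim, Pdgfrb (2.82 ± 0.57, adjusted p = 0.0308) and the microfibril gene Fbn1 (1.09 ± 0.20, adjusted p = 0.0239). The called members of the adhesion list split by type: the epithelial genes Epcam (−1.33 ± 0.13, adjusted p = 0.00636) and Cdh1 (−0.84 ± 0.13, adjusted p = 0.0177) were lower. Zeb1, a repressor of Cdh1 (1.63 ± 0.26, adjusted p = 0.0185), Vim, the intermediate filament of mesenchyme (1.53, adjusted p = 0.0263), Twist1 and Itga5 (1.23 ± 0.21, adjusted p = 0.0204) were higher. Epcam read 76.7, 116 and 56.9 CPM against 231, 264 and 133 CPM, and Vim 265, 179 and 658 CPM against 52.3, 61.3 and 398 CPM. The day courses of Vim overlapped between lines, and those of Epcam did not. After centring 4 members of the list were higher and 3 lower, against 4 (23.5%) and 2 (11.8%) of 17 without it.

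In heart muscle genes the called members differed in direction, Myh7, a heavy chain of cardiac myosin, being lower (0.196, 0 and 3.45 CPM against 0.739, 5.55 and 39.9 CPM; −2.79 ± 0.62, adjusted p = 0.0384) and the calcium channel Ryr2 higher (1.49 ± 0.35, adjusted p = 0.044) among 15 tested. After centring only the lower member was called (Ryr2 1.48, adjusted p = 0.0538). The keratin genes Krt7 (−2.25 ± 0.35, adjusted p = 0.0176) and Krt19 (−1.35 ± 0.34, adjusted p = 0.0492) were lower. Krt19 lies on chromosome 11 and lost its call after centring (−0.97, adjusted p = 0.11). None of 16 endothelial and blood genes passed the test. In definitive endoderm, whose list shares Sox17 and Foxa2 with those above, 3 of 9 were higher (33.3%) and 2 lower (22.2%), and 3 and 1 after centring. In neural crest and surface ectoderm 1 of 8 was higher (12.5%) and 2 lower (25%), and 0 and 2 after centring. In trophoblast 0 of 12 were higher and 2 lower (16.7%). Of 5 GATA factors Gata4 and Gata6 were higher (40%).

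Germline genes had more lower members than higher ones. Of 20 tested 7 were lower (35% against 7.36% of all genes) and 1 higher, and 6 and 0 after chromosome centring. Dppa3, also called Stella, which guards maternal methylation marks in the early embryo and marks primordial germ cells, read 1.49, 1.88 and 3.9 CPM against 72.6, 36.7 and 54.4 CPM (−4.34 ± 0.35, adjusted p = 0.00335). Tfap2c, a factor of primordial germ cell specification, read 21.3, 28.1 and 23.1 CPM against 88.4, 48.7 and 82.7 CPM (−1.55 ± 0.26, adjusted p = 0.0209). For both genes the lines did not overlap. Of the meiotic chromosome proteins, Hormad1 (−2.61 ± 0.32, adjusted p = 0.0107), Sycp1 (−2.02 ± 0.38, adjusted p = 0.026) and Rec8 (−1.27 ± 0.26, adjusted p = 0.0307) were lower, while Sycp3 was higher, at 8.36, 29.3 and 17.6 CPM against 4.96, 11.3 and 3.13 CPM (1.47, adjusted p = 0.0455). Tex19.1, a restraint on retrotransposons, was at −1.70 ± 0.20 (adjusted p = 0.00976). Dppa3 stood at 84.7 and 124 CPM in single cells labelled Jarid2 null and at 39.5 and 42 CPM in WT cells.

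Imprinted genes, expressed from 1 parental allele, held a pair of the largest decreases. Of 23 tested 1 was higher (4.35%) and 3 were lower (13.0%). Nnat, a small membrane protein of neurons, read 0, 0.135 and 0.801 CPM against 11, 15.7 and 31.5 CPM (−4.90 ± 0.29, adjusted p = 0.0014). Plagl1, a zinc finger growth suppressor, read 0, 0 and 0.592 CPM against 3.25, 6.82 and 32.8 CPM (−4.23 ± 0.44, adjusted p = 0.00703). Both were at or near 0 in the Jarid2 null-labelled samples while JM8 was highest at day 7. Of the other called members of the 23 tested, Gnas was higher (0.67 ± 0.13, adjusted p = 0.0279) and Grb10 lower (−0.62 ± 0.12, adjusted p = 0.0269), and neither passed after chromosome centring, which left 0 higher and 2 lower (0.53, adjusted p = 0.0629, and −0.23, adjusted p = 0.225). Igf2, the fetal growth factor, read 4061 CPM at day 7 against 3497 CPM and was not called (0.72 ± 0.43, adjusted p = 0.29).

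Pluripotency genes were called about as often as other genes over the 3 days. In the naive list 6.67% were higher and 6.67% lower, in the formative list 9.09% each, and in the core list 1 of 8 was lower (12.5%). The medians changed with day. At days 2, 4 and 7 they were 0.41, −0.27 and −1.03 for the naive list and 0.19, −0.15 and −0.50 for the core list. For the formative list they were −1.04, 0.09 and −0.35. Without day 2, 1 of 15 naive genes was higher and 5 were lower. With 1 sample per line and day, these day medians have no replicate. Pou5f1 went from 969 to 117 CPM between days 2 and 7 in the Jarid2 null-labelled samples and from 735 to 167 CPM in JM8 (−0.11 ± 0.19, adjusted p = 0.725). Sox2 was lower, at 312, 79.2 and 69.8 CPM against 413, 134 and 125 CPM (−0.66, adjusted p = 0.031). Nanog did not pass (−0.83 ± 0.31, adjusted p = 0.127), nor did Esrrb (−0.54 ± 0.43, adjusted p = 0.416) or Klf4 (0.73 ± 0.32, adjusted p = 0.172). Of 15 naive pluripotency genes 1 was higher, Tbx3, which is a factor of both naive cells and primitive endoderm, at 267, 222 and 160 CPM against 26.8, 36.8 and 55.7 CPM (2.46 ± 0.32, adjusted p = 0.0121). Fbxo15 was the 1 lower (−0.80 ± 0.19, adjusted p = 0.0425). In the formative epiblast list Pou3f1, also called Oct6, was lower (4.73, 14.3 and 4.98 CPM against 35.8, 57.8 and 11.5 CPM; −1.98, adjusted p = 0.0214) and Fgf15 higher (1.99 ± 0.47, adjusted p = 0.0426). Otx2, a factor of primed epiblast and forebrain, was at −0.50 ± 0.13 (adjusted p = 0.0573) and passed once chromosomes were centred (−0.72, adjusted p = 0.0316), while Fgf15 did not (1.80, adjusted p = 0.0693), so that the formative list then had 0 higher and 2 lower.

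Of 16 tested in the neural ectoderm list 1 was higher (6.25%) and 2 lower (12.5%), shares near those of all genes, with a median of −0.69. Ncam1, an adhesion molecule of neurons, was higher (1.59 ± 0.37, adjusted p = 0.0436; 1.47, adjusted p = 0.0644, after centring), and Stmn2, a microtubule regulator of growing axons, was lower (138, 27.6 and 12.7 CPM against 246, 53 and 34.1 CPM; −1.05 ± 0.16, adjusted p = 0.0173). The early neural factors Pax6 (−0.84 ± 0.34, adjusted p = 0.145) and Sox1 (−1.0 ± 0.71, adjusted p = 0.372) did not pass. Of 13 clustered protocadherin genes tested, which give neurons their surface identity, 4 were higher (30.8% against 7.64% of all genes) and none lower. Pcdhga9 was at 8.5, 9.41 and 8.99 CPM against 0.808, 1.76 and 3.82 CPM (2.09 ± 0.40, adjusted p = 0.0269). After chromosome centring 2 were higher. These genes share their last exons within a cluster, so reads there cannot always be assigned to 1 of them.

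In the Wnt list of 30 1 gene was higher (3.33%) and 4 lower (13.3%). Wnt11 was higher (2.29 ± 0.44, adjusted p = 0.0274) and Wnt7b (−1.98 ± 0.40, adjusted p = 0.0313), the receptor gene Fzd2 (−1.58 ± 0.20, adjusted p = 0.0107), the target and effector Tcf7 (−0.83 ± 0.16, adjusted p = 0.0275) and Znrf3 (−0.68 ± 0.15, adjusted p = 0.0381) were lower. Fzd2, Tcf7 and Znrf3 lie on chromosome 11, and after centring 1 member was higher and 2 lower. In the Nodal, BMP and TGF-beta list of 29, 13.8% were higher and 3.45% lower. The ligand Tgfb1 (1.20 ± 0.19, adjusted p = 0.0177), the activin antagonist Fst (1.42 ± 0.31, adjusted p = 0.0357), the feedback inhibitor Smad7 (0.93 ± 0.16, adjusted p = 0.0217) and the BMP target Id1 (0.64 ± 0.12, adjusted p = 0.0261) were higher. The Nodal antagonist Lefty1, on chromosome 1, was lower (−0.84 ± 0.18, adjusted p = 0.0358, and −0.38, adjusted p = 0.211, after centring). The count after centring was 3 higher and none lower.

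In the FGF and ERK list of 20, 4 were higher (20%) and 1 lower (5%). The ligand Fgf3 (2.51 ± 0.57, adjusted p = 0.0403), the receptor Fgfr4 (2.46 ± 0.42, adjusted p = 0.0215), Fgf15 and the feedback inhibitor Spry4 were higher and the phosphatase Dusp4, on the shifted part of chromosome 8, was lower (−1.04 ± 0.20, adjusted p = 0.0289). After centring 2 were higher and 1 lower. Dusp4 was then at −1.03, but the centring does not remove the shift of that part of chromosome 8. Fgfr4 read 3.74, 3.75 and 15.8 CPM against 0.876, 0.518 and 1.13 CPM, with no overlap. For Notch, the receptor Notch3 was higher (0.84 ± 0.17, adjusted p = 0.0298) and Lfng, which modifies the receptor, lower (−1.51 ± 0.28, adjusted p = 0.0256), and after centring only the latter was called (Notch3 0.74, adjusted p = 0.0505). For Hedgehog, the coreceptor Boc (2.29 ± 0.39, adjusted p = 0.0212) and the transducer Smo (0.69 ± 0.13, adjusted p = 0.0257) were higher among 10 tested (20%). Of 14 immediate early genes, which respond to handling of cells, only Jund was higher (0.63 ± 0.13, adjusted p = 0.0312). Of 9 DNA methylation enzymes only Tdg was lower, and with retrocopies summed into their parents 0 were. None of 14 retinoic acid genes, 16 p53 targets or 7 testable Hox genes of 39 listed passed.

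The Polycomb genes themselves differed at a few subunits. Suz12, the scaffold of the PRC2 core, read 266, 209 and 213 CPM against 644, 461 and 486 CPM (−1.20 ± 0.11, adjusted p = 0.00516). The highest value of the Jarid2 null-labelled samples lay below the lowest of JM8. Suz12 (chr11:79993106-80034123) lies on chromosome 11, remained called after centring (−0.82, adjusted p = 0.0193), and had no matched retrocopy. In single cells it stood at 217 and 199 CPM for Jarid2 null and 192 and 178 CPM for WT at days 4 and 7. The other core genes did not pass: Ezh2, the main methyltransferase, was at −0.16 (adjusted p = 0.428), Eed at −0.23 (adjusted p = 0.319) and Ezh1 at −0.55 ± 0.14 (adjusted p = 0.0565).

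Among accessory genes Mtf2 was at 0.03 (adjusted p = 0.877), a value whose sign turned under 4 alternatives. Phf1, a paralogue of Mtf2 in PRC2.1, read 5.86, 8.6 and 10.7 CPM against 2.63, 3.84 and 4.55 CPM (1.10 ± 0.25, adjusted p = 0.0405), and Eloa was at 0.60 ± 0.15 (adjusted p = 0.0471). After chromosome centring Phf1 was at 1.01 (adjusted p = 0.0627) and Eloa at 0.49 (adjusted p = 0.0839), and 1 other member of the 8 was called. Of 19 PRC1 genes, Rnf2, the ubiquitin ligase RING1B (−0.62 ± 0.12, adjusted p = 0.0255), and Pcgf6 (−0.85 ± 0.15, adjusted p = 0.024) were lower (10.5% against 7.36% of all genes). Rnf2 lies on chromosome 1 and Pcgf6 on chromosome 19, and neither passed after centring (−0.16, adjusted p = 0.368, and −0.56, adjusted p = 0.0877). Among the demethylases of H3K27, the Y-linked Uty was higher, at 34.9, 56.9 and 51.8 CPM against 22.3, 15.5 and 10.7 CPM (1.58 ± 0.32, adjusted p = 0.0312), and Kdm6a, its partner on chromosome X, was not called (0.12 ± 0.13, adjusted p = 0.566). After centring 2 of the 7 genes of that list were higher.

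The calls in cell cycle and metabolism lay largely on the shifted chromosomes or beside retrocopies. Of 26 S and G2/M phase genes 4 were lower (15.4% against 7.36% of all genes), Pcna, Top2a, Cenpf and Mcm6. The topoisomerase gene Top2a (chromosome 11) was at −1.0 ± 0.16 (adjusted p = 0.0191), the kinetochore gene Cenpf (chromosome 1) at −1.0 ± 0.15 (adjusted p = 0.0168) and the replicative helicase gene Mcm6 (chromosome 1) at −0.73 ± 0.17 (adjusted p = 0.0404). After centring they were at −0.62 (adjusted p = 0.0593), −0.54 (adjusted p = 0.0787) and −0.27 (adjusted p = 0.323), and 1 gene of the list, Pcna, was still called. Centring does not join a gene with its copies, and Pcna did not pass once its copies were added, as given above. With retrocopies summed 3 genes of the list were lower. Among 13 G1 genes tested 3 were higher (23.1% against 7.64% of all genes), and 1 of the 3 after centring. They were the inhibitor Cdkn1b (0.90 ± 0.14, adjusted p = 0.0181), Cdk4 (0.55 ± 0.11, adjusted p = 0.032) and the inhibitor locus Cdkn2a (1.16 ± 0.29, adjusted p = 0.0499). Of 20 oxidative phosphorylation genes 4 were lower (20%), all of them complex I genes on chromosomes 1 or 19. Ndufs1 was at −0.77 ± 0.11 (adjusted p = 0.015) and at −0.31 (adjusted p = 0.122) after centring, and no member passed then.

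Sterol and fatty acid synthesis held 6 lower genes of 23 (26.1% against 7.36% of all genes) and none higher, with a median of −0.41. Msmo1, a sterol demethylase, read 129, 62.2 and 59.9 CPM against 197, 160 and 157 CPM (−1.12 ± 0.19, adjusted p = 0.0204). Scd1, the desaturase of stearate, was at −1.04 ± 0.13 (adjusted p = 0.0106), and Idi1, an isomerase of the mevalonate pathway, at −0.98 ± 0.12 (adjusted p = 0.0107). The fatty acid synthase gene Fasn, the carboxylase gene Acaca and the citrate lyase gene Acly, all on chromosome 11, were at −0.74 ± 0.17, −0.72 ± 0.14 and −0.59 ± 0.14, and did not pass after centring (adjusted p = 0.194, 0.151 and 0.342). The list then held 5 lower genes. In glycolysis and hypoxia 2 genes were higher and 2 lower of 24 (8.33% each, near the shares of all genes). The higher ones were Pfkl (0.64 ± 0.13, adjusted p = 0.0322) and Tpi1 (0.52 ± 0.13, adjusted p = 0.0465). The lower ones were Ankrd37, a target of hypoxia-inducible factor (−2.53 ± 0.40, adjusted p = 0.0179), and Eno1, at 681, 638 and 475 CPM against 1592, 2401 and 1902 CPM. With its copy Eno1b, which differs at 8 of 1302 aligned coding bases, Eno1 summed to 2426, 2231 and 1710 CPM against 1596, 2401 and 1904 CPM, and the ranges overlapped. After centring none was higher and 3 were lower. The 13 transcripts encoded by the mitochondrial genome had a median difference of −1.40 at day 2, 0.30 at day 4 and 0.31 at day 7, and none was called.

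**Figure D5:**
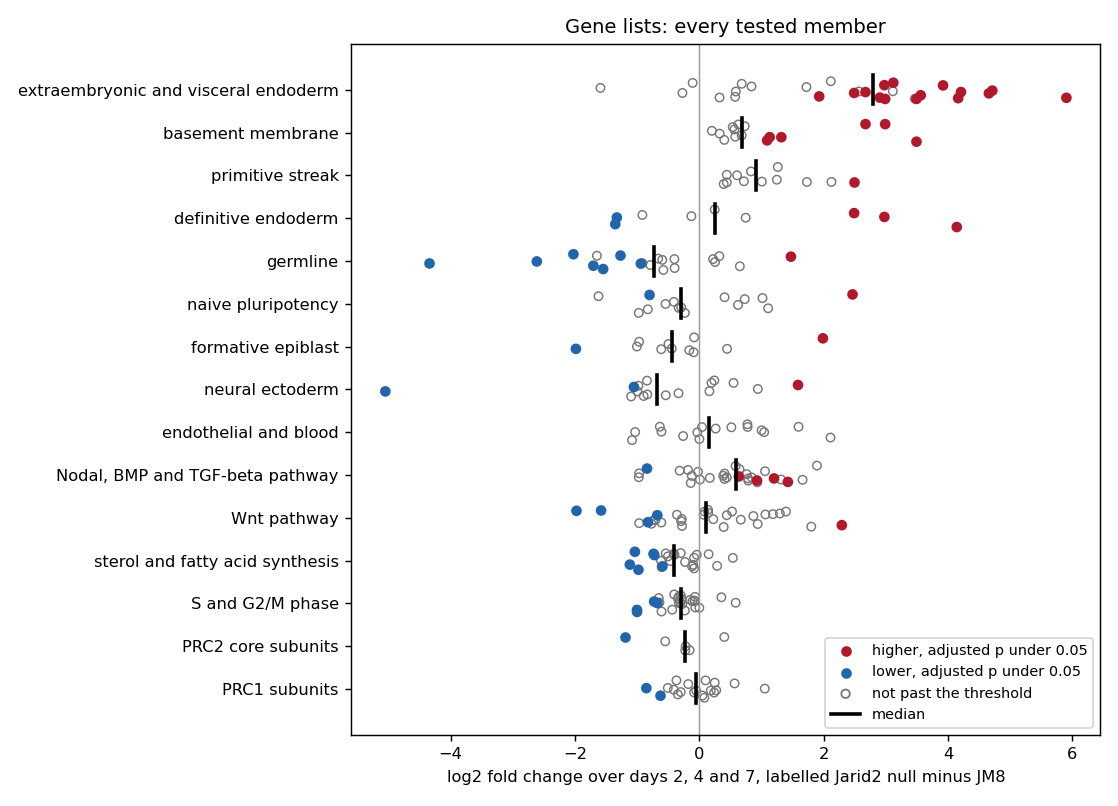
log2 fold change of every tested member of each gene list, Jarid2 null-labelled minus JM8 over days 2, 4 and 7, with the median as a bar; filled points passed an adjusted p under 0.05. The extraembryonic endoderm list has 15 of 28 members higher and the germline list 7 lower, while the medians of the other lists shown lie between −0.69 and 0.92.

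Whether these differences were particular to this pair of lines was tested against the other pair of the bulk series, libraries labelled Mtf2 null (Mtf2GT/GT) against Pcl1-3 WT at the same days. The line differences themselves differed for 774 of 15078 genes (5.13%), 2.24% in the higher direction and 2.9% in the lower. Of the endoderm genes plotted by day none was among them. Gata4 had a log2 difference of 4.68 in the Mtf2 pair, and the difference between pairs was 0.03 (adjusted p = 0.99), while Cubn had 7.25 there and a difference of −1.35 between pairs (adjusted p = 0.50). A p above the threshold does not show that the pairs were alike. Dppa3 (−3.65), Plagl1 (−5.63), Nnat (−3.72), Cdh1 (−1.32) and Idi1 (−1.61) were further down in the Jarid2 pair, and Zeb1 (2.46) and Nid2 (1.63) further up. These values are differences between the pairs. In the Mtf2 pair itself Plagl1 (1.38), Cdh1 (0.48) and Idi1 (0.63) were higher, while Dppa3, Nnat, Zeb1 and Nid2 were lower. Retrocopies fell into both kinds: Rps3a3 was higher in the Mtf2 pair as well, by 8.74, and Pcna-ps2 by 6.15, whereas Rpl3-ps1 was at −0.30 and Hmga1b at −1.51 in that pair.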

How the data were processed

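The authors deposited 1 bulk table of gene values, read counts divided by a DESeq2 size factor for each column (signal), and UMI counts per well for single-cell plates. The submitters' processing notes name CASAVA, Salmon and DESeq2 for the bulk libraries, with mm10 (GRCm38) as the build. Of 46 bulk columns 40 were mapped to samples and 6 were not used. Whole read counts were recovered from the deposited signal values (100% of values whole within 0.02), and 12 columns of 3381368 to 8113699 reads were averaged in pairs to 6 samples. The 2 columns of the Jarid2 null-labelled sample at day 7 share a library number. Of 26007 genes, 25816 had a symbol in GENCODE M21.

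CPM were scaled by TMM in edgeR 4.0.16 (factors 0.87 to 1.09), and genes of at least 1 CPM in 3 of 6 samples were kept. log2 CPM with a prior count of 2 was tested in limma 3.58.1 with a mean-variance trend, a term for line and a block for day, and p-values were adjusted by Benjamini-Hochberg over all tested genes. Fold changes are on this log2 scale, which understates low genes. A change of the difference with day, and the difference from the Mtf2 null pair, were fitted in the same way. Retrocopies were matched with BLAST+ 2.17.0. Single cells of at least 500 genes were summed per plate. Alternatives were other scalings, filters, prior counts, edgeR and DESeq2 1.42.0 on recovered reads, columns kept apart, no day term, more days or lines, each day left out and, chosen after seeing the data, coding genes only, retrocopies summed and chromosomes centred. Simulated data had 50 genes per fold size, the same dispersion for every gene and no effect of day, unlike the real data. In them the limma test of this comparison recovered 3 genes at 1.5-fold, 27 at 2-fold and 50 each at 4-fold and 8-fold, with 5 false calls of 14114.

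The samples, gene lists and rules were chosen with earlier results of these data known. Genes named were Jarid2, Mtf2 and Eed, the 12 largest called changes in each direction with 1 sign at all days and at least 5 CPM (predicted genes left out), the 4 largest called and the first 4 members of each of 39 lists, and 5 genes in each direction whose difference moved most from day 2 to day 7. Other genes were singled out after their values were seen.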

Additional observations from a re-analysis of the deposited data

Results flagged for a closer look

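The difference between the lines was set against that between Mtf2 null-labelled and Pcl1-3 WT libraries, and 33 of the genes examined differed between the pairs at an adjusted p under 0.05 (limma, interaction of pair and line; the values are the log2 difference of the Jarid2 pair minus that of the Mtf2 pair). All were counted in 3 days a side. For genes at 0 CPM in a whole group the size depends on the prior count and is no bound.

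Among genes further down in the Jarid2 pair were markers that told the lines apart and genes with abundant retrocopies or related copies: Ubd (−6.83), Hprt (−6.78), Srp54b (−5.98), Olig1 (−4.46), Ftl1 (−3.92) and Hmga1 (−2.65). Imprinted and germline genes followed, with Plagl1 at −5.63, Nnat at −3.72, Dppa3 at −3.65, Tex15 at −3.18, Sycp1 at −2.75 and Rec8 at −2.03. Genes of muscle, epithelium and nerve were Myh7 (−4.71), Krt7 (−4.03), Krt19 (−2.98), Nes (−2.02) and Cdh1 (−1.32). Genes of signalling and metabolism were Ankrd37 (−3.04), Msmo1 (−2.70), Wnt7b (−2.66), Lfng (−2.33), Idi1 (−1.61) and Dusp4 (−1.48). Of the genes in this paragraph only Hprt, Olig1, Ftl1, Nnat and Dppa3 were lower in the Mtf2 pair itself. The others were higher there, so part of each value comes from that pair. Ubd was higher there by 2.38, Myh7 by 1.92, Krt7 by 1.77, Krt19 by 1.63 and Msmo1 by 1.58. Tex15 (1.54 there) and Nes (1.48 there) were not called in the Jarid2 pair.

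Further up in the Jarid2 pair were the retrocopies and pseudogenes Rpl3-ps1 (11.8), Hmga1b (10.9), Rps2-ps10 (7.09), Tdgf1-ps1 (6.46) and Ftl2-ps (5.93), the Y-linked Eif2s3y (6.10) and Uty (2.03), and Srgn (2.53), Zeb1 (2.46) and Nid2 (1.63). In the Mtf2 pair itself Tdgf1-ps1, Ftl2-ps and Srgn were higher and the others of these genes lower.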

How the results depend on the processing

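The 2073 calls were compared under 18 other settings, and no gene called in both was called in the opposite direction under any of them. The count differed by more than 1.5 times with columns kept apart (4410, estimated correlation 0.499), without a term for day (182), with DESeq2 at an adjusted p under 0.001 and at least 2-fold (713), and with chromosomes centred, chosen after seeing the data (1280). Leaving out 1 day gave 42 to 1891 calls, the fewest without day 4, and 24 to 404 for the difference between pairs of lines. With other settings the count lay between 1624 (no filter, of 23404 genes) and 2895 (all 6 lines in the fit). edgeR called 1807 genes and DESeq2 2784. The change with day called 0 genes in every fit, with 1473 at an unadjusted p under 0.05 at a prior count of 10 and 1553 with all lines. Mtf2 turned to −0.071 with upper-quartile scaling, −0.27 with day 0 added, −0.090 without day 2 and −0.12 with chromosomes centred, and ranged from −0.090 to 0.107 with 1 day left out. Pou5f1 ranged from −0.36 to 0.095, above 0 without day 7. Neither was called. Of the 149 named genes, 131 were called. Calls were lost for 36 of 149 with chromosomes centred and 100 of 149 without a day term, and, among genes that those fits tested, 9 of 138 with retrocopies summed and 95 of 128 without day 4. The cause was not tested. No paired analysis was possible because, beyond the day term that already pairs the lines by day (2073 calls with it, 182 without), the columns were joined into 1 value per line and day, so no replicate number enters the fit. In the simulated data 3 of 50 genes at 1.5-fold were recovered, so small differences may have been missed with 3 samples a side. Of the 2073 genes called in the data, 632 were higher and 481 lower by at least 2-fold, and the rest differed by less.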
